A study of Homo sapiens with 15 samples.

Results

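Polycomb repressive complex 1 (PRC1) is a family of chromatin complexes, each built on a RING protein paired with a PCGF protein. The 7 core subunit genes described here are the catalytic RING genes RING1 and RNF2 and the PCGF genes BMI1, PCGF2, PCGF3, PCGF5 and PCGF6. They were chosen by name, as subunits of this core. All 7 are among the 22705 genes of the table used, and all 7 are among the 15134 genes that passed the filter on low values and were tested. DLD1, an established line of human colorectal cancer cells, was profiled by RNA-seq in 5 groups of 3 libraries, 15 in all. The KO group is the DLD1 USP7 knockout that carries a doxycycline-inducible GFP-USP7 transgene and the Tet3G transactivator, selected with G418 and left without doxycycline. In the day 1, day 3 and day 9 groups the same knockout cells received 1 µg/ml doxycycline for 1, 3 or 9 days. The WT group is the parental line with no treatment, no transgene and no G418 selection, so the 4 other groups share the knockout, both plasmids and the selection. The labels do not say whether the knockout or the transgenic line is 1 clone. They call the replicates biological and mention a plate for each, without stating that the cultures were independent, so the p-values measure the spread between these libraries, which may be technical. Doxycycline on WT cells was not analysed here.

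The RING subunit of PRC1 is the ubiquitin ligase that places 1 ubiquitin on histone H2A, a mark of silent developmental genes and of much other chromatin. RING1 and RNF2 (also called RING1B) are the alternative catalytic subunits, and the PCGF subunit decides which complex forms. BMI1 (PCGF4) and PCGF2 (MEL18) pair with CBX and PHC proteins in the canonical complexes, which bind the mark laid down by PRC2. PCGF3 and PCGF5 work with AUTS2 and casein kinase 2, and PCGF6 works with MGA, MAX, E2F6 and L3MBTL2. PCGF1, not among the 7 genes, joins KDM2B and BCOR. USP7 is a deubiquitinase that also associates with some of these complexes, and the series asks how its loss and return bear on them. The data here are RNA levels and hold no measure of protein, complex or histone mark.

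Of the 7 genes, only BMI1 and RING1 passed the threshold given below both as lower in KO than in WT and as higher at day 3 than in KO. Their promoters are shown for that reason. Neither RING1 result passed in the authors' deposited table (adjusted p = 0.0881 and 0.0645). Day 3 also differs from KO in the code carried by the column names, as described below. All 7 genes matched the RefSeq promoter table for build GRCh38.p14, which is not the hg19 build named for the alignment. The 250 bases before the first listed start of BMI1, at chr10:22320849-22321098 on the + strand, and the 250 bases before the start of RING1, at chr6:33208250-33208499 on the + strand, read as follows. Capitals mark the E-box CACGTG, a motif of basic helix-loop-helix factors, and the GC box GGGCGG or its reverse complement CCGCCC, both strands being searched.
BMI1: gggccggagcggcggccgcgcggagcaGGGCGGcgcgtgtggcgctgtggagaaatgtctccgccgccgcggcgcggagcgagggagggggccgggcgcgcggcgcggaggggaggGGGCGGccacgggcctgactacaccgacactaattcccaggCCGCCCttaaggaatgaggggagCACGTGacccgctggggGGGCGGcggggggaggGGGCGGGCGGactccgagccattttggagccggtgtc
RING1: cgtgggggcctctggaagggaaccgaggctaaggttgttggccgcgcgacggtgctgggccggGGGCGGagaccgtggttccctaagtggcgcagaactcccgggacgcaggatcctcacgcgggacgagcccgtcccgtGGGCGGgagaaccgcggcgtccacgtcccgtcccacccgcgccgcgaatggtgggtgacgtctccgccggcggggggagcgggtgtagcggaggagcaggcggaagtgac
The BMI1 window holds 1 E-box and 6 GC boxes, the last 2 of which overlap, and the RING1 window holds no E-box and 2 GC boxes. An E-box is present in 6.34% and a GC box in 42.6% of 35116 promoter windows of the same length. The windows hold 35 CG dinucleotides in BMI1 and 34 in RING1, against a median of 11 over all windows. The second start listed for BMI1, whose window at chr10:22321706-22321955 is not printed, has 54 CG dinucleotides, 5 GC boxes and no E-box. These letters are a description of the windows and do not show that any factor binds there.

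The deposited values are normalized counts, from which read counts were not recovered. They summed to between 14741094 and 15347043 per library, with 20857 to 21314 genes above 0. USP7 RNA averaged 1389.3 ± 17.6 in KO and 3391.8 ± 25.4 in WT. It reached 8238.9 ± 375.3 at day 1, 7827.9 ± 341.2 at day 3 and 4787.9 ± 335.7 at day 9 (SD, n = 3 for each), so each doxycycline group held more than KO and than WT. Of 10 colorectal epithelial markers 9 had a row (CDX1 did not), and their summed normalized counts were 150885.1 to 157379.3 in KO, 128093.1 to 148733.9 at day 1, 140565.1 to 152303.8 at day 3, 102148.7 to 107930.6 at day 9 and 97665.2 to 100110.8 in WT. Of those 9, 8 were higher and 1 lower in KO than in WT (limma, adjusted p under 0.05). Of all genes tested, 24.8% were higher and 49.7% differed in either direction by that threshold. The lower marker was KRT20, with a mean of 0.0 in KO and 197.7 in WT. The part of these markers in any result below was not tested. Marker sums of leukocytes (3 of 6 in the table), fibroblasts (2 of 6), endothelium (2 of 5) and other lineages (2 of 6) stayed between 18.8 and 130.2, and PTPRC, CD3E, COL1A2, COL3A1, PECAM1 and CDH5 had no row. The names of the columns carry 1 code for the 9 KO, WT and day 1 libraries and another for the 6 day 3 and day 9 libraries, so a difference of day 3 or day 9 from KO or WT cannot be told apart from a difference between the codes. Day 1 replicate 1 stood apart in its variance over genes, taken relative to the variance that counting would give if the normalized counts were reads. Against day 1 replicates 2 and 3 it was at 17.1 and 12.1 times, where replicates 2 and 3 were at 1.67. Day 9 replicate 1 stood apart to a lesser degree, at 6.41 and 5.24 times against 2.39 between day 9 replicates 2 and 3.

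Differences between groups were tested with limma on log2(normalized count + 1), and a gene is called here at a Benjamini-Hochberg adjusted p under 0.05 over all 15134 genes. In KO against WT 3 of the 7 genes were called, RNF2 higher and BMI1 and RING1 lower, where 49.7% of all genes tested were called. At day 1 against KO none was called, where 10.9% of all genes were. No gene of the 7 reached an unadjusted p under 0.05 there either, and the authors' deposited table likewise called 0. At day 3 against KO 2 of 7 were called, BMI1 and RING1, both higher, with 27.4% of all genes called in either direction and 13.5% called higher. At day 9 against KO 1 of 7 was called, RNF2, lower, with 25.9% of all genes called in either direction and 13.4% called lower. At day 9 against WT 1 of 7 was called, BMI1, lower, with 21.8% of all genes called. In each of these comparisons the share of the 7 genes called was near or below the share of all genes. Most calls were of small changes, and the change of BMI1 in KO was the largest of the 7 in these comparisons. In RNA from whole cultures, fewer cells of a kind and less RNA per cell cannot be told apart.

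**Figure D1:**
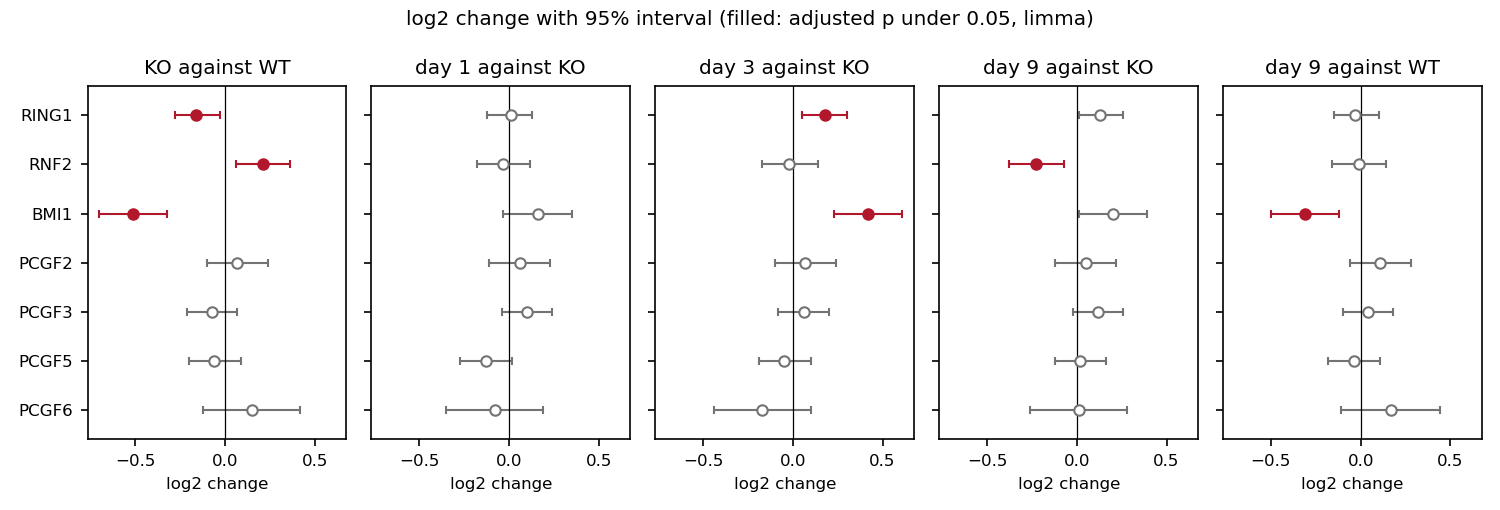
The log2 change of each of the 7 genes (x axis, in log2 units of normalized count + 1) with its 95% interval, in 5 comparisons from KO against WT on the left to day 9 against WT on the right. Filled red points passed an adjusted p of 0.05 in limma and open grey points did not; BMI1 is called in 3 panels, RING1 and RNF2 in 2 each, and no PCGF gene other than BMI1 in any.

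Of the catalytic subunits, RING1 had 587.9, 570.3 and 611.1 normalized counts in the KO libraries, against 663.8, 652.3 and 659.5 in the WT libraries. The highest KO library lay below the lowest WT library, a separation that 63.1% of all genes showed in one direction or the other. Its mean was 589.8 ± 20.5 in KO and 658.5 ± 5.8 in WT (SD, n = 3 each), a log2 change of -0.16 (SE 0.06, adjusted p = 0.0321, limma). This call ended when any of 5 libraries was left out, with adjusted p values of 0.0726 without KO replicate 1, 0.114 without KO replicate 2, and 0.0818, 0.0621 and 0.0728 without WT replicates 1, 2 and 3. In the authors' deposited table its adjusted p was 0.0881. Across the doxycycline series RING1 stood at 545.0, 620.8 and 614.1 at day 1, at 695.9, 630.1 and 679.3 at day 3, and at 650.9, 646.5 and 641.9 at day 9. Day 1 overlapped KO, while every day 3 and day 9 library lay above every KO library; such separation held for 45.4% of all genes at day 3 and 42.1% at day 9. The change from KO was 0.01 at day 1 (adjusted p = 0.971), 0.18 at day 3 (SE 0.06, adjusted p = 0.0297) and 0.13 at day 9 (adjusted p = 0.114). The day 3 call ended without day 3 replicate 1 (0.116), day 3 replicate 3 (0.0888), KO replicate 1 (0.0733) or KO replicate 2 (0.114), and the authors' deposited table gave 0.0645. Against WT, the day 9 change was -0.03, with a 95% interval of -0.15 to 0.10 and an adjusted p of 0.802.

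RNF2, the other catalytic subunit, moved the opposite way. It had 410.6, 365.3 and 409.1 normalized counts in KO, against 357.8, 344.6 and 319.3 in WT. The groups did not overlap, as for the 63.1% of all genes above, though KO replicate 2 lay only just above WT replicate 1. Means were 395.0 ± 25.7 in KO and 340.6 ± 19.6 in WT (SD, n = 3 each), a log2 change of 0.21 (SE 0.07, adjusted p = 0.0197, limma). The call ended without KO replicate 1 (0.0805), KO replicate 3 (0.0773) or WT replicate 3 (0.103), and the authors' deposited table gave 0.0621. At day 1 RNF2 stood at 400.9, 375.5 and 380.8, and at day 3 at 360.3, 407.5 and 403.8. Both of these groups overlapped KO, with log2 changes of -0.03 and -0.02 (adjusted p = 0.843 and 0.902). At day 9 the libraries held 323.5, 339.1 and 349.3, each of them below the lowest KO library, where 42.1% of all genes had groups that did not overlap. The day 9 mean was 337.3 (n = 3), and the change from KO was -0.23 (SE 0.07, adjusted p = 0.026). That call ended without day 9 replicate 1 (0.0931), day 9 replicate 2 (0.0559), KO replicate 1 (0.106) or KO replicate 3 (0.101), and the authors' deposited table gave 0.068. At day 9 RNF2 overlapped WT, with a change of -0.01 and a 95% interval of -0.16 to 0.14. The epithelial marker sums given above were likewise higher in KO than at day 9 and in WT. KRT8 and KRT18 had the largest means of those markers in every group. KRT20 went the other way, with means of 0.0 in KO, 39.4 at day 9 and 197.7 in WT. The part of these markers in the RNF2 values was not tested. GENCODE v29 on GRCh38 places a processed pseudogene, FTH1P25, on the opposite strand over RNF2, and whether the counting used strand is not stated.

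**Figure D2:**
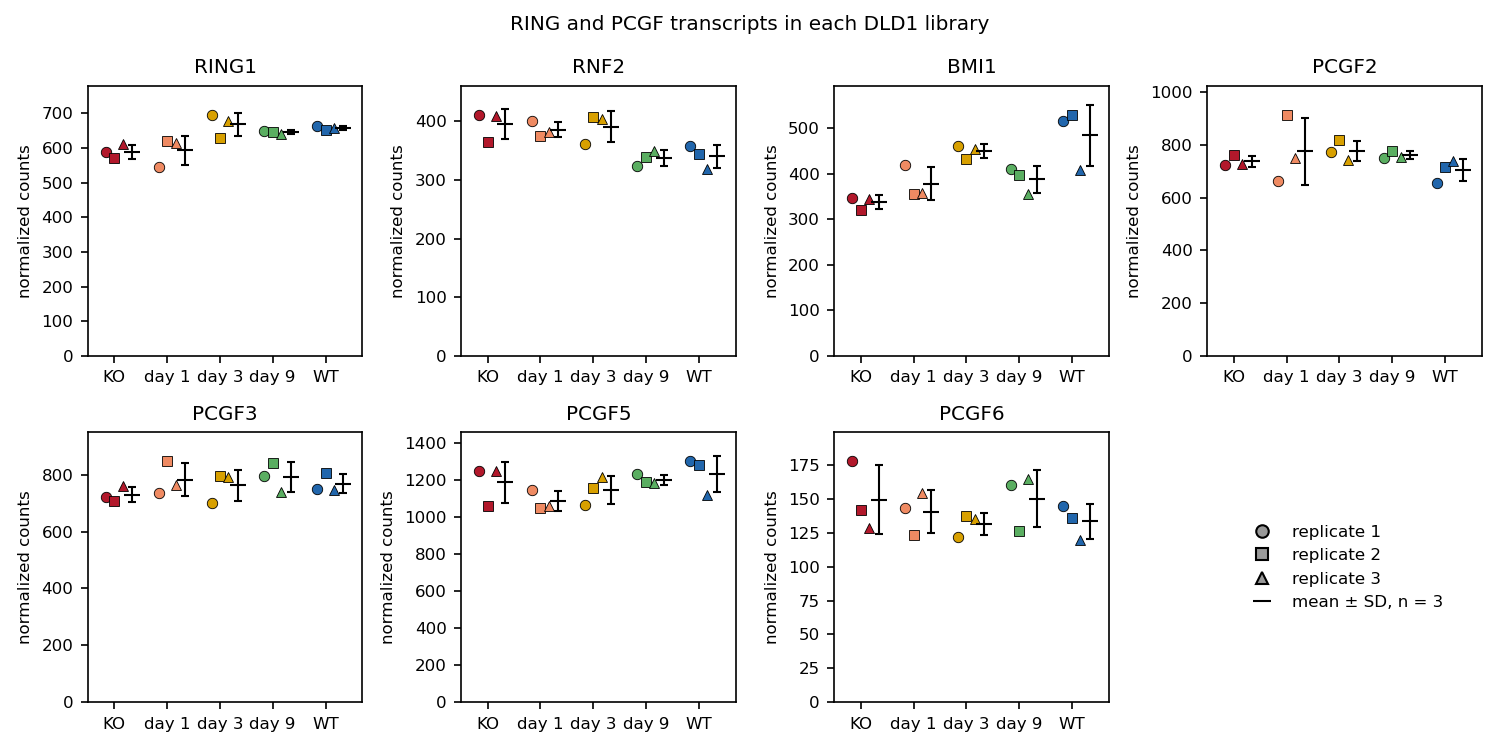
Normalized counts (y axis, from 0, a different range in each panel) of each of the 7 genes in all 15 libraries, by group on the x axis with KO at the left and WT at the right. Circles, squares and triangles are replicates 1, 2 and 3, and bars are the mean ± SD (n = 3); BMI1 is lowest in KO and highest in WT, whereas the PCGF3 and PCGF6 groups all overlap.

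Among the PCGF genes BMI1 changed most. BMI1, a subunit of canonical PRC1 best known for silencing the CDKN2A locus and for stem cell maintenance, had 346.8, 319.5 and 345.4 normalized counts in KO, against 516.3, 529.5 and 407.9 in WT. WT replicate 3 was well below the other WT libraries, yet above every KO library, where 63.1% of all genes had groups that did not overlap. The mean was 337.2 ± 15.4 in KO and 484.5 ± 66.7 in WT (SD, n = 3 each), so that BMI1 fell by 29.9% in KO relative to WT, a log2 change of -0.51 (SE 0.09, adjusted p = 8.84e-05, limma). It was called in 16 of 16 alternatives, among them those with 1 library left out, with changes between -0.63 and -0.44.

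With doxycycline BMI1 stood at 420.1, 355.5 and 358.9 at day 1, at 462.3, 433.3 and 455.5 at day 3, and at 411.1, 396.6 and 355.3 at day 9. Every one of these 9 libraries lay above every KO library, the gaps being narrow at day 1 and day 9. The groups of 26.8% of all genes did not overlap at day 1, of 45.4% at day 3 and of 42.1% at day 9. The change from KO was 0.16 at day 1 (95% interval -0.03 to 0.35, adjusted p = 0.294), where leaving out day 1 replicate 1 gave 0.08. At day 3 it was 0.42 (SE 0.09, adjusted p = 0.00166), called in 15 of 15 alternatives with changes between 0.38 and 0.44. At day 9 it was 0.20 (95% interval 0.01 to 0.39, adjusted p = 0.12). Between day 9 and day 3, which share a column code, the change was -0.22 (adjusted p = 0.161). Against WT, BMI1 was lower at day 1 (-0.35, adjusted p = 0.00387, also called within the shared column code) and at day 9 (-0.31, SE 0.09, adjusted p = 0.0163). Day 3 did not pass against WT, at -0.10 (adjusted p = 0.462). The day 9 groups overlapped, since WT replicate 3 at 407.9 lay under day 9 replicate 1 at 411.1, and the call ended without day 9 replicate 3 (0.0928), WT replicate 1 (0.0907) or WT replicate 2 (0.107).

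BMI1 has a neighbour that bears on how its reads were counted. GENCODE v29 on GRCh38 annotates a protein-coding readthrough gene, COMMD3-BMI1, that shares the strand and the exons of COMMD3 and BMI1, and no label or header states how the authors' counting treated such shared reads. COMMD3, whose product belongs to a family that works in endosomal sorting, was looked at for this overlap and lies outside the rule for named genes. It had 129.5, 115.5 and 134.4 normalized counts in KO, against 194.4, 167.8 and 159.2 in WT. Here too no KO library reached the WT range, where 63.1% of all genes had groups that did not overlap. The log2 change was -0.45 (SE 0.13, adjusted p = 0.00589, limma). At day 3 COMMD3 held 147.5, 135.2 and 100.5, a range that encloses KO. Its change from KO was 0.00 there, with a 95% interval of -0.27 to 0.26 (adjusted p = 0.996), where that of BMI1 was 0.42. Whether these changes differ from each other, and what part readthrough RNA has in either gene, was not tested. COMMD3-BMI1 itself was not analysed here.

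The other PCGF genes passed in none of the 5 comparisons above. PCGF2, the paralogue of BMI1 in canonical PRC1, had 725.5, 761.4 and 726.5 normalized counts in KO, against 657.8, 716.3 and 739.1 in WT. The ranges overlapped, and the log2 change was 0.07 with a 95% interval of -0.10 to 0.24 (adjusted p = 0.512, limma). At day 1 PCGF2 ran from 664.8 in replicate 1 to 914.2 in replicate 2, with an SD of 126.7, the largest of any of the 7 genes in any group. At days 3 and 9 it held 742.0 to 817.9 and 751.5 to 778.4, with changes from KO of 0.07 and 0.05. At day 9 against WT every library of PCGF2 lay above the WT range, with a change of 0.11 (adjusted p = 0.361), in a comparison where 40.1% of all genes had groups that did not overlap. GENCODE v29 places CISD3 and an antisense gene on the opposite strand over PCGF2. The library kit marks strand, but no label or header states whether the counting used it, so reads of such partners cannot be told apart from those of PCGF2.

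PCGF3, which works with the same partners as PCGF5, had 722.5, 706.7 and 758.4 normalized counts in KO, against 749.5, 806.2 and 746.1 in WT. The groups overlapped, with a log2 change of -0.07 (95% interval -0.21 to 0.07, adjusted p = 0.388, limma). The changes from KO were 0.10 at day 1, 0.06 at day 3 and 0.12 at day 9, with 95% intervals that all took in 0. Antisense genes are annotated over PCGF3 as well, 4 of them, with the same limit on its counts.

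PCGF5 had 1250.6, 1062.0 and 1252.1 normalized counts in KO, against 1301.7, 1279.7 and 1121.1 in WT. One low library in each group made the ranges overlap, and the log2 change was -0.06 (95% interval -0.20 to 0.09, adjusted p = 0.528, limma). Its libraries held 1147.4, 1052.4 and 1058.7 at day 1, the lowest mean of the gene's 5 groups. PCGF5 was called at day 1 against WT, at -0.18 (adjusted p = 0.0407, where 40.7% of all genes were called), and at no other point. The call was kept in 7 of 15 alternatives; it ended without day 1 replicate 2 (0.108), day 1 replicate 3 (0.116), WT replicate 1 (0.168) or WT replicate 2 (0.143). It also ended under equal medians (0.0843), within 1 column code (0.0733), with those groups fitted alone (0.0754) and without the trend and robust options (0.0895). Also at day 1 against WT, RING1 was called at -0.15 (adjusted p = 0.0467), a call that ended without day 1 replicate 1 (0.204) or WT replicate 1 (0.112), 2 (0.0857) or 3 (0.10), and likewise under equal medians (0.0877), with no filter (0.0706), within 1 column code (0.0688) and with those groups fitted alone (0.114). At day 3 against WT, RNF2 alone was called, at 0.20 (adjusted p = 0.0467, with 29.8% of all genes called), and that call ended without day 3 replicate 2 (0.152), day 3 replicate 3 (0.142), WT replicate 2 (0.0872) or WT replicate 3 (0.195), and with no filter (0.0701).

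PCGF6, the subunit that links PRC1 to the MGA and MAX DNA-binding proteins, had the lowest level per kb of exon of the 7 genes. It had 177.4, 141.3 and 128.4 normalized counts in KO, against 144.5, 135.9 and 119.4 in WT. The groups overlapped and KO replicate 1 was the highest of all 15 libraries. The log2 change was 0.15 (95% interval -0.12 to 0.42, adjusted p = 0.351, limma), and the changes from KO ran from -0.17 at day 3 to 0.01 at day 9. Its standard error of 0.13 was about that of COMMD3 and larger than that of the other 6 genes, so its intervals were the widest of the 7. GENCODE v29 places an snRNA gene, RNU11-3P, on the same strand over PCGF6, and how shared reads were counted is not stated.

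Ranked by mean over the 5 groups, no gene of the 7 had a step between neighbouring groups that passed the test. RING1 ran from day 3 at the top through WT, day 9 and day 1 to KO, and day 3 passed against KO as given above. For RNF2 the order was KO, day 3, day 1, WT and day 9, with the widest step between day 1 and WT (0.18, adjusted p = 0.0534). For BMI1 it was WT, day 3, day 9, day 1 and KO, and for PCGF5 WT, day 9, KO, day 3 and day 1, the ends of each order having passed as given above. For PCGF2, PCGF3 and PCGF6 even the highest group did not pass against the lowest, with adjusted p values of 0.206, 0.229 and 0.439.

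Ratios of paralogues within a library do not depend on its scaling, and 3 pairs were compared in 5 comparisons, 15 exact permutation tests in all, in which 3 against 3 libraries cannot go below 0.10. The log2 ratio of RING1 to RNF2 was 0.52, 0.64 and 0.58 in KO, against 0.89, 0.92 and 1.04 in WT. All KO ratios lay below all WT ratios, with a mean difference of -0.37 (exact two-sided permutation p = 0.10, 0.30 adjusted over the 15 tests), in a comparison where 63.1% of single genes had groups that did not overlap. At day 9 the ratio was 1.01, 0.93 and 0.88, above all KO ratios and overlapping those of WT (difference from WT -0.01, exact p = 0.80). Between day 9 and KO 42.1% of single genes had groups that did not overlap. Day 1 and day 3 ratios overlapped those of KO, with means of 0.62 ± 0.15 and 0.77 ± 0.16 (SD, n = 3 each).

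The log2 ratio of PCGF2 to BMI1 was 1.06, 1.25 and 1.07 in KO, against 0.35, 0.44 and 0.86 in WT. Again the groups did not overlap, as for 63.1% of single genes, and the difference was 0.58 (exact p = 0.10, adjusted 0.30). At day 3 the ratios of 0.74, 0.92 and 0.70 all lay under the KO ratios, a difference of -0.34 at the same p. At day 9 they were 0.87, 0.97 and 1.08, which overlapped KO and lay above all WT ratios. The groups of 45.4% of single genes did not overlap at day 3 against KO, and of 40.1% at day 9 against WT. PCGF3 to PCGF5 overlapped in each of the 5 comparisons, with mean log2 ratios between -0.70 ± 0.10 in KO and -0.47 ± 0.16 at day 1.

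**Figure D3:**
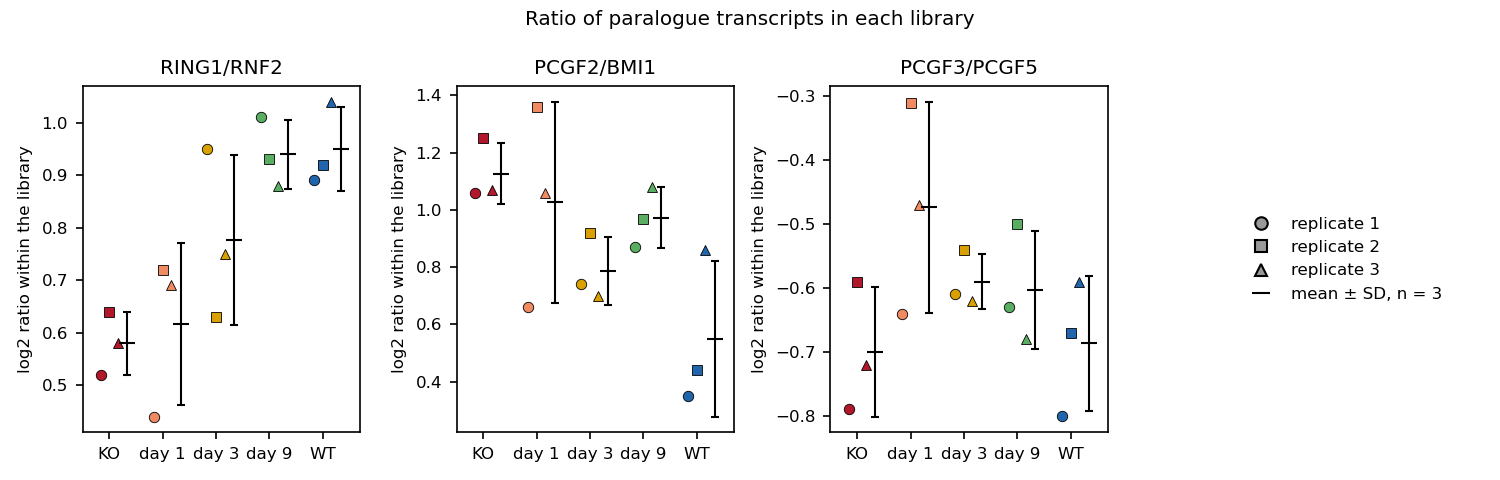
Log2 ratio of RING1 to RNF2, PCGF2 to BMI1 and PCGF3 to PCGF5 in each library (y axis, log2 units, not starting at 0), by group on the x axis from KO to WT; symbols are replicates and bars the mean ± SD (n = 3). The RING1/RNF2 ratio is 0.58 ± 0.06 in KO, 0.94 ± 0.07 at day 9 and 0.95 ± 0.08 in WT, while PCGF2/BMI1 is 1.13 ± 0.11, 0.97 ± 0.11 and 0.55 ± 0.27 in the same groups.

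Levels of different genes were compared per kb of exon, taking the union of GENCODE v29 exons as the length (1.818 kb for RING1, 4.073 kb for RNF2). Which transcripts the DLD1 cells use was not measured, and the length enters every share. RING1 had 324.4 ± 11.2 normalized counts per kb in KO and 362.2 ± 3.2 in WT, and RNF2 had 97.0 ± 6.3 in KO and 83.6 ± 4.8 in WT (SD, n = 3 each). RING1 thus made up 77.0 ± 0.8% of the summed level of both RING genes per kb in KO, 77.4 ± 1.9% at day 1, 79.3 ± 1.8% at day 3, 81.1 ± 0.7% at day 9 and 81.3 ± 0.9% in WT. Within the 5 PCGF genes, PCGF2 had the largest share per kb in every group, 36.3 ± 2.1% in KO and 33.0 ± 2.9% in WT. PCGF5 followed with 24.7 ± 1.6% in KO and 24.3 ± 1.2% in WT, and PCGF3 had 16.9 ± 0.6% in KO and 16.9 ± 0.4% in WT. BMI1 had a share of 13.6 ± 0.3% in KO, 17.2 ± 1.1% at day 3, 14.9 ± 0.8% at day 9 and 18.5 ± 1.8% in WT, so its mean share was below that of PCGF3 in KO and above it in WT, though not in WT replicate 3. PCGF6 was last with 8.5 ± 1.3% in KO and 7.3 ± 0.5% in WT.

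**Figure D4:**
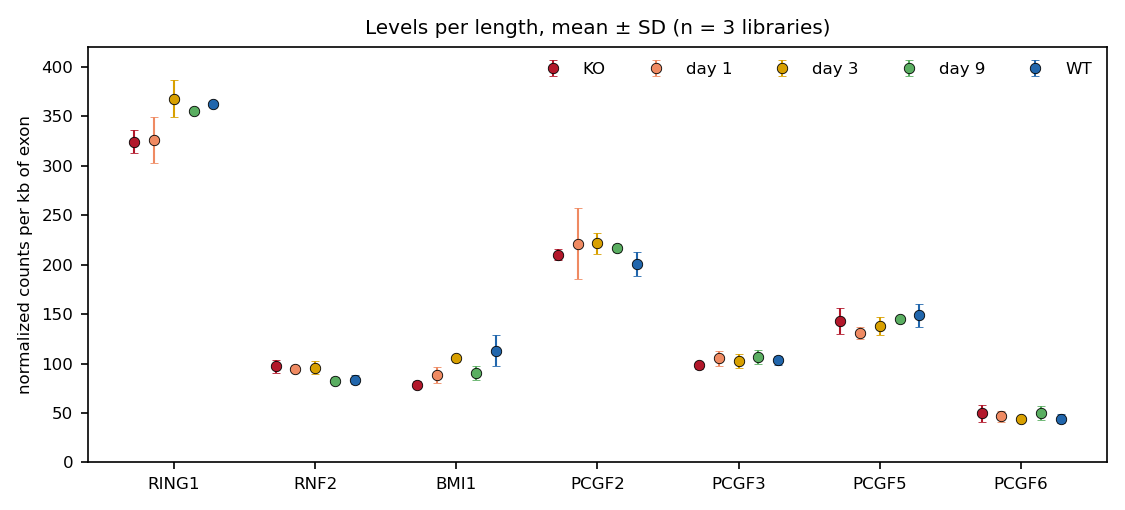
Normalized counts per kb of exon (y axis, from 0) for the 7 genes (x axis), as mean ± SD over 3 libraries, coloured by group with KO first and WT last. RING1 is highest throughout (324.4 in KO and 362.2 in WT) and PCGF6 lowest (49.5 in KO and 44.3 in WT).

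The proteins that join the 7 subunits were followed as 34 further PRC1 genes in 5 lists, all 34 of them tested. In KO against WT 15 of the 34 were higher and 6 lower, with a median log2 change of 0.15 against 0.00 over all genes, 49.7% of which were called in either direction. The partners of PCGF6 had 6 of 9 higher and none lower (median 0.23), where 24.8% of all genes were called higher. Among the 6, E2F6 lay at the threshold (adjusted p = 0.0499, limma). HDAC2, a histone deacetylase, averaged 4512.3 ± 169.8 in KO and 3377.3 ± 133.7 in WT (SD, n = 3 here and for the means below, change 0.42, adjusted p = 6.63e-07, limma). MGA, the scaffold and DNA-binding protein of the PCGF6 complex, averaged 1096.3 ± 33.9 in KO and 872.2 ± 8.9 in WT (0.33, adjusted p = 6.6e-05), and WDR5, a WD-repeat adaptor shared with histone methyltransferases, was 0.24 higher (adjusted p = 7.48e-05). PCGF6 itself did not pass in that comparison. At day 9 against KO 4 of these 9 partners were lower and none higher, beside 13.4% of all genes called lower, among them MGA at -0.30 and WDR5 at -0.16 (adjusted p = 0.000423 and 0.00708). At day 3 against KO the counts were the same, 4 lower and none higher, beside 13.9% of all genes. HDAC1 and HDAC2, WDR5, MAX and E2F6 also serve in complexes outside PRC1.

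Of 7 partners of PCGF3 and PCGF5, 2 were higher and 1 lower in KO than in WT, no larger a share than the 49.7% of all genes. AUTS2, known from mouse brain to turn the PCGF5 complex towards activation, had the largest change of all 34 genes, with 234.3 ± 13.9 normalized counts in KO and 31.2 ± 3.6 in WT (log2 change 2.87, SE 0.13, adjusted p = 3.14e-13, limma). It stood at 144.5 ± 22.8 at day 1, 100.3 ± 8.3 at day 3 and 63.6 ± 7.9 at day 9, each lower than KO and, at day 9, still above WT (1.00, adjusted p = 1.26e-05). DCAF7, a WD-repeat scaffold, averaged 2873.6 ± 32.1 in KO and 3977.3 ± 74.0 in WT (-0.47, adjusted p = 7.88e-09), and 3473.4 ± 176.8 at day 9, 0.27 above KO (adjusted p = 3.99e-05). At day 9 it was still called lower than WT. CSNK2A2, a catalytic subunit of casein kinase 2, was 0.14 higher in KO than in WT (adjusted p = 0.0155), a call that ended without KO replicate 2 (0.0581), WT replicate 2 (0.0506) or WT replicate 3 (0.0564).

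**Figure D5:**
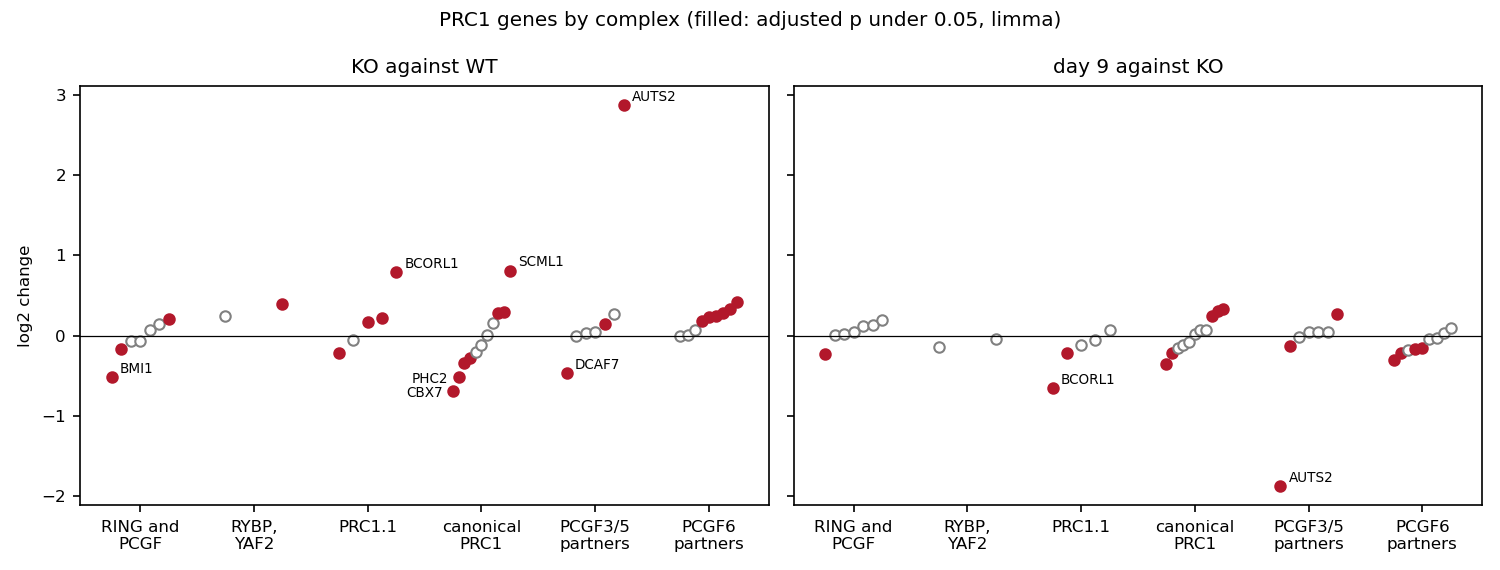
Log2 change (y axis) of the 7 core genes and the 34 further PRC1 genes, each point a gene, placed by complex on the x axis, in KO against WT (left) and day 9 against KO (right). Filled points passed an adjusted p of 0.05 in limma, and named genes changed by more than 0.45 among those that passed; AUTS2 is at 2.87 on the left and -1.87 on the right.

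Of 11 further canonical PRC1 genes, the partners of BMI1 and PCGF2, 3 were higher and 4 lower in KO than in WT (median -0.11), beside 49.7% of all genes called in either direction. PHC2, a polyhomeotic protein that lets complexes cluster, averaged 1403.9 ± 53.2 in KO and 1993.3 ± 27.4 in WT (-0.51, adjusted p = 8.11e-07, limma), the same size of change as BMI1. CBX7, a chromodomain reader of the PRC2 mark, averaged 271.5 ± 21.1 in KO and 437.3 ± 10.7 in WT (-0.69, adjusted p = 1.28e-05), and the SAM-domain gene SCML1 was 0.81 higher (adjusted p = 4.76e-08). At day 1 against KO none of the 11 was called, beside 10.9% of all genes. At day 3 CBX2 alone was, at -0.28, beside 27.4% of all genes called in either direction. At day 9 against KO 3 were higher and 2 lower, beside 25.9% of all genes called, with PHC2 at 0.33 (adjusted p = 0.000346) and SCMH1 at 0.24 (adjusted p = 0.00127) among the higher and SCML1 at -0.35 (adjusted p = 0.00251) among the lower. Against WT at day 9, 1 of the 11 was higher and 3 were lower, PHC2 among the lower, beside 21.8% of all genes called in either direction. CBX7 was still at -0.38 (adjusted p = 0.0105, and 0.0745 without day 9 replicate 3) and SCML1 at 0.46 (adjusted p = 0.000267).

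In the PCGF1 complex (PRC1.1) 3 of 5 genes were higher and 1 lower in KO than in WT, where 24.8% of all genes were higher and 49.7% changed in either direction. BCORL1, a BCOR-like corepressor, averaged 549.3 ± 46.0 in KO and 317.3 ± 7.3 in WT (0.79, adjusted p = 2.61e-07, limma) and was lower than KO at day 3 (-0.66) and day 9 (-0.65). At day 1, which shares the column code of KO, BCORL1 was at -0.36 against KO (adjusted p = 0.0117). That call ended without KO replicate 2 (0.0762) or with those groups fitted alone (0.0775). BCOR was lower in KO (-0.21, adjusted p = 0.0059, and 0.0535 without KO replicate 1). KDM2B, which brings the complex to CpG islands, was 0.22 higher (adjusted p = 0.0187), a call that ended without KO replicate 1 (0.0654), KO replicate 3 (0.0504) or WT replicate 1 (0.121). At day 1 it was at -0.26 against KO (adjusted p = 0.0281), a call that ended without KO replicate 1 (0.106), 2 (0.0538) or 3 (0.0837). The call also ended without day 1 replicate 1 (0.0575) or 2 (0.0559), with those groups fitted alone (0.0769) and without the trend and robust options (0.0703). BCORL1 and KDM2B were the 2 of 5 called at day 1 against KO, both lower, beside 10.9% of all genes. Neither was called with those groups fitted alone. RYBP, the subunit that takes the place of CBX proteins in noncanonical complexes, averaged 1047.5 ± 49.1 in KO and 793.8 ± 4.8 in WT (0.40, adjusted p = 1.02e-05), and at day 9 it was still 0.26 above WT (adjusted p = 0.00291). Its paralogue YAF2 did not pass in either comparison.

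The genes most like each of the 7 across all 15 libraries were found by Pearson r on the log2 scale among the 11553 genes whose mean reached 50, as a description in which the points share their groups and library scaling. RING1 was closest to USP5 (0.872), TSPAN4 (0.856) and CLCF1 (0.85). RNF2 ran with HACD2 (0.927), TMEM106B (0.92) and TRAM1 (0.911), which like RNF2 had their lowest group means at day 9 and in WT. Closest to BMI1 were ZDHHC2 and SDCBP (0.927 each) and PHLDB2 (0.922), and all of these had their lowest mean in KO and their highest in WT, with SDCBP at 2684.4 in KO and 4198.8 in WT. For PCGF2 they were EDC4 (0.934), SLC16A5 (0.912) and KDM5C (0.905), and for PCGF5 VKORC1L1 (0.888), C5orf24 (0.867) and MAD2L1 (0.866). PCGF3 and PCGF6 had weaker neighbours, led by RBM15 (0.828) and MORN4 (0.781). Between pairs of the 7 genes, r was 0.57 for RING1 with BMI1, -0.46 for RING1 with RNF2, -0.37 for BMI1 with PCGF2 and -0.57 for PCGF2 with PCGF5.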

How the data were processed

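RNA-seq of 15 libraries, 3 per group, was read from 1 table, with groups and replicate numbers from the sample titles. Per the submitters' processing notes, which give no roles or order, the tools were HISAT2 2.1.0, HTSeq and DESeq2 with build hg19; no annotation or strand setting is named there. What the authors deposited is a signal of normalized counts, in which every value of a library is a whole multiple of 1 step between 0.9899 and 1.0073 (tolerance 1e-06). The unit check used here did not accept these values as recovered reads, which does not show that they are not scaled reads. The planned edgeR and DESeq2 fits of recovered reads were therefore not run, and depth is known only as the totals given. Per the file headers, the authors also deposited group means, log2 fold changes and adjusted p-values against KO, used here only as an alternative set of calls. Of 22706 genes, 22463 have a symbol by Ensembl ID from a separate table, and 1 gene was left out because a cell held text.

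Genes reaching 10 in 3 or more libraries entered the fit (15134). log2(value + 1) was fitted with limma 3.58.1 (R 4.3.3) to all 15 libraries with 1 mean per group, eBayes with trend and robust options, two-sided, Benjamini-Hochberg adjusted, threshold 0.05. The log2 changes are on that scale, which understates changes of low genes. Paralogue ratios were tested by exact permutation with scipy 1.17.1. The fit was tested on simulated data. Named are the 7 genes in every comparison, up to 3 genes per list and comparison with the lowest adjusted p, and the 3 genes most like each; COMMD3 and the list members named beside them as shared parts of other complexes were added. The members and lists were chosen with earlier results of these data known. Exon lengths and overlaps are from GENCODE v29 on GRCh38, and promoters from RefSeq on GRCh38.p14. Alternatives changed scaling, filter, pseudocount, libraries, variance model and block.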

Additional observations from a re-analysis of the deposited data

How the results depend on the processing

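Equal medians, no filter, a filter of 50, pseudocounts of 0.5 and 5, fits of the 2 groups alone, and another variance model moved the count of called core genes in none of the 5 comparisons. Fits within 1 column code, possible only where both groups share a code (KO, WT and day 1), did not move it either. By the adjusted p of the authors' deposited table the count was 1 in KO against WT, 1 at day 3 against KO and 0 at day 9 against KO. With 1 library left out in turn, the count ran between 1 and 2 in KO against WT, 1 and 2 at day 3 against KO, 0 and 1 at day 9 against KO, and 0 and 1 at day 9 against WT. Over all genes, day 1 against KO gave 1650 calls, 632 when only those groups were fitted, and between 955 and 2416 with 1 library left out, the highest without day 1 replicate 1. The labels give no shared batch or day for a replicate number. Residual correlations ran from -0.0608 to 0.252 (median 0.0386) between same-numbered libraries and from -0.186 to 0.147 (median -0.019) between others. Of 15 libraries 11 correlated best with their own number, a hint of shared replicates. Most same-numbered pairs were under 0.1, so the numbers were not taken as pairs. The highest correlation, 0.252, was between day 1 replicate 1 and day 9 replicate 1, the libraries that stood apart above. With the replicate number as a block, 3 core genes were called in KO against WT, 0 at day 1, 2 at day 3 and 1 at day 9 against KO, and 1 at day 9 against WT, and 7936 genes in all were called in KO against WT. The only call it added among the genes named was COMMD3 at day 9 against WT (adjusted p 0.0526, and 0.0354 with the block).

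With 1 library left out, log2 changes that had not passed turned sign within small ranges: PCGF5 -0.12 to 0.02 in KO against WT, -0.13 to 0.00 at day 3 and -0.06 to 0.06 at day 9 against KO, and -0.10 to 0.00 at day 9 against WT. Likewise at day 1 against KO RING1 ran from -0.03 to 0.07, PCGF2 from -0.06 to 0.17 and PCGF6 from -0.18 to 0.05, and at day 9 PCGF6 ran from -0.09 to 0.15. RNF2 ran from -0.07 to 0.04 at day 3 against KO and from -0.06 to 0.02 at day 9 against WT, where PCGF3 ran from 0.00 to 0.09. COMMD3 at day 3 against KO ran from -0.11 to 0.16, with 0.00 under equal medians and 0.01 in the authors' deposited table. The cause of these shifts was not tested. Of 120 alternative values of the paralogue ratios, none moved by more than the spread between replicates. The median standard error of a log2 change was 0.087 over all genes, and that of PCGF6 was 0.13.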

Other observations

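Genes that act beside PRC1 on the same chromatin moved in both directions. Of 12 PRC2 genes tested, 3 were higher and 4 lower in KO than in WT (limma, adjusted p under 0.05), beside 49.7% of all genes called in either direction. JARID2, which helps PRC2 bind the ubiquitin mark of PRC1, averaged 535.7 ± 9.1 normalized counts in KO and 289.4 ± 8.9 in WT (SD, n = 3 each), a log2 change of 0.89 (adjusted p = 1.84e-09). PHF19, a Polycomb-like PRC2 accessory subunit, averaged 1173.9 ± 40.1 in KO and 1949.8 ± 32.4 in WT, a change of -0.73 (adjusted p = 1.37e-10), and EPOP, another accessory subunit, was at 0.50 (adjusted p = 5.01e-06). Relative to KO, 3 PRC2 genes were higher and 3 lower at day 9, beside 25.9% of all genes, with JARID2 at -0.73 and PHF19 at 0.36. Of 8 genes for deubiquitinases of histone H2A and their cofactors tested, 1 was higher and 3 lower in KO than in WT, a share close to the 49.7% of all genes. ASXL2, the cofactor of BAP1, was at -0.29 (adjusted p = 3.19e-05), USP22 at -0.21 (0.000299) and USP3 at 0.31 (4.55e-05). By day 9, 2 of these 8 were higher than in KO and none lower, beside 25.9% of all genes called in either direction, with USP22 at 0.17 (adjusted p = 0.00332).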
